A study of Cavia porcellus with 30 samples.

Results

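The 100 transcripts with the highest abundance in the kidney of vehicle-treated guinea pigs were followed across doses and times of mercuric chloride exposure. They were chosen by ranking the 25824 listed transcripts by mean TPM over 10 vehicle animals and taking the first 100 after the 13 mitochondrial transcripts numbered ENSCPOT00000017558 to ENSCPOT00000017587 were removed. TPM scales reads by the effective length of a transcript, which is the number of positions where a fragment of the library can start, and has the same total in each animal. The rule used the TPM of the vehicle animals, so the abundance of these 100 transcripts in vehicle kidney is a description and not a result.

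RNA was sequenced from kidney of 30 male Hartley guinea pigs, with 5 animals in each of 6 groups. The vehicle groups received saline (1 mL/kg) and were sampled at 9 or 33 h. The low-dose groups received 1.00 mg/kg and the high-dose groups 1.50 mg/kg of mercuric chloride as an intraperitoneal injection, and were sampled at the same times. All of the animals, vehicle included, carried a jugular vein catheter placed a week before dosing. All were without food for the last hours before sampling, those of the 9 h groups from dosing onward and those of the 33 h groups from the second morning. The animals were 4 weeks old at purchase. Each library holds the RNA of whole kidney powder from 1 animal, so a lower transcript level can come from fewer cells of a type or from less RNA per cell, and the 2 cannot be told apart here. Total estimated counts per animal lay between 23134713 and 36072327. The files name transcripts by Ensembl identifiers without gene symbols, so the kidney label was not checked against marker genes, and the readable part of the study's supplement pairs 13 of the 100 members with rat Entrez Gene identifiers.

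A few transcripts make up a large part of the messenger RNA of most tissues, and in kidney the tubule cells contribute much of it. Mercuric chloride injures mainly the cells of the proximal tubule, which take up filtered solutes and depend on mitochondria for energy. Because TPM values sum to a constant, the share of one transcript can move when others change, and relative levels are best read together with a scaling that is less tied to the largest transcripts.

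The 100 members held 32.1% ± 1.32 (SD, n = 10) of all TPM in the vehicle animals but a smaller part of the reads. At 9 h they held 16.1% ± 4.39 of the estimated counts in the vehicle animals and at 33 h 12.6%. The members are short. Their median length was 620 bases (range 78 to 4924) against 2079 bases over all listed transcripts. The most abundant member, ENSCPOT00000037091.1, has 93 bases, a mean effective length of 12.2 positions and a mean of 46338 TPM, which is 4.63% of TPM and 0.0483% of the counts. By contrast, ENSCPOT00000025542.2, which ranked 4, has 2267 bases and took 3.08% of the counts, the highest mean count of any transcript. Without vehicle animal 59 it took 1.90% of the counts and ranked 5, with a mean of 10728 TPM in place of 17814. The effective length of a very short transcript is a model estimate, and for ENSCPOT00000037091.1 it ran from 10.5 to 13.5 positions over the 30 animals, so its TPM depends strongly on that estimate.

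Length classes were set after the values had been seen. Of the members, 16 had an effective length under 100 bases, 36 were at least 1000 bases long, and 48 lay between. Among the 100 members, 5 shared their values with another member in every animal, in a set of 3 transcripts of 159 bases and a set of 2 of 432 bases, leaving 97 distinct profiles. The members just inside the limit of the rule, ranked 98 to 100, had 819, 816 and 814 TPM, and those just outside had 797, 787 and 782 TPM. Over the 10 vehicle animals the coefficient of variation of member TPM had a median of 10.4% (range 3.34% to 130%).

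In the vehicle animals, 3 members varied far more than the rest. ENSCPOT00000025542.2 had 16154, 19589, 53606, 167230 and 19309 CPM (counts scaled by the library total and the TMM factor) in the 5 vehicle animals of 9 h, numbered 31, 32, 58, 59 and 60. Animal 59 alone was thus over 3 times the next animal. ENSCPOT00000000270.3 had 2218 and 1196 CPM in animals 31 and 32 and 428, 406 and 424 CPM in animals 58, 59 and 60, against 1039 to 3197 CPM in the 5 vehicle animals of 33 h. ENSCPOT00000001543.3 followed the same order, with 1857 and 1023 CPM in animals 31 and 32, 306 to 332 CPM in the other 9 h vehicle animals and 1012 to 2656 CPM at 33 h. For both, the vehicle animals numbered 58 to 60 lay below every dosed animal, which for ENSCPOT00000000270.3 ranged from 920 to 2523 CPM. Whether the animal numbers mark separate runs or cohorts is not given in the sources used here, and if they do, the 9 h comparisons with vehicle would hold that difference too. Over the 36 long members these control animals lay close to each other, with a median of -0.01 and -0.02 (animals 31 and 32) and of 0.08, 0.05 and 0.00 (animals 58 to 60) on the log2 scale relative to the mean of the 10 vehicle animals.

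The combined share of TPM of the 100 members lay between 31.2% and 34.0% on average in every dosed group, and its parts moved unequally. At 9 h the share was 32.9% ± 1.26 in vehicle, 31.2% ± 1.18 in low-dose and 32.8% ± 1.34 in high-dose animals. At 33 h it was 31.3% ± 0.778, 33.4% ± 2.04 and 34.0% ± 1.33 (n = 5 each). The ranges of vehicle and dosed animals overlapped at both times, although barely for the high dose at 33 h, where the lowest animal had 32.3% and the highest vehicle animal 32.5%. The first 50 and the first 200 transcripts by the same ranking were just separate there (highest vehicle animal 27.51% and lowest high-dose animal 27.54%, and 38.4% and 39.4%). Of the estimated counts, the 100 members held 16.1% ± 4.39, 11.4% ± 0.423 and 11.1% ± 0.672 at 9 h. Every dosed animal (at most 12.1%) lay below every vehicle animal (at least 13.4%). Vehicle animal 59 had 23.5%, against a median of 13.4% in its group. Over the vehicle animals of both times, ENSCPOT00000025542.2 took 3.08% of the counts, and 1.90% without animal 59. Whether the separation at 9 h holds without this member was not tested. At 33 h the 100 members held 12.6%, 12.1% and 11.2% of the counts, and the groups overlapped. No test was made on a sum over chosen transcripts.

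**Figure D1:**
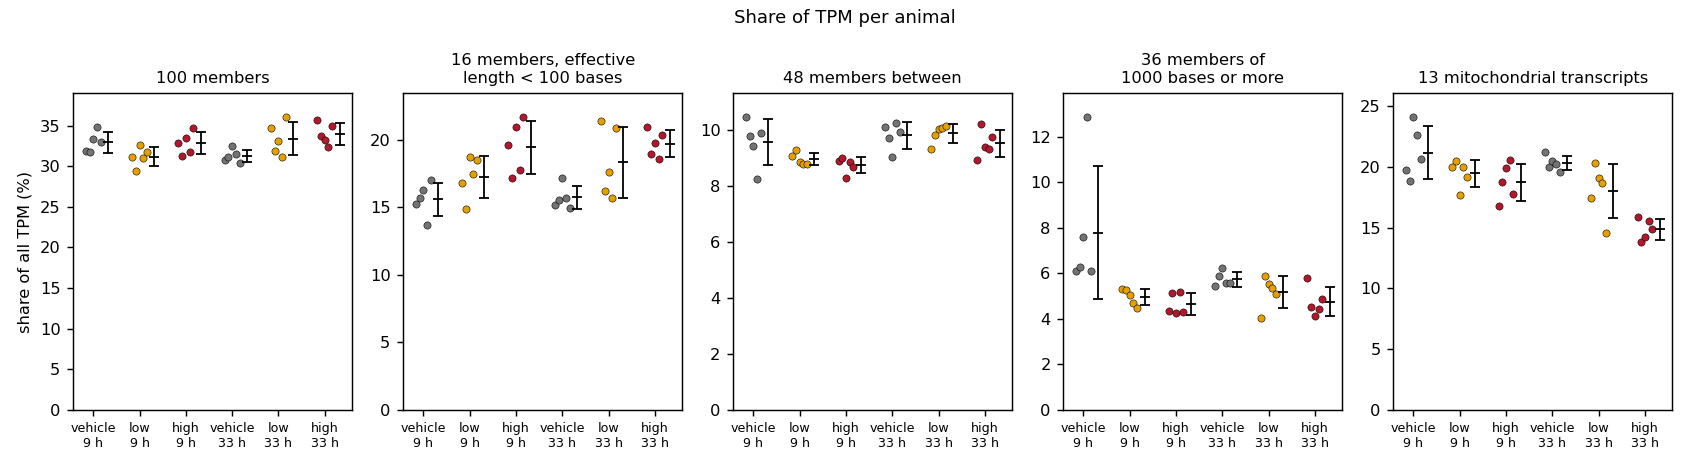
Share of all TPM (%, y axis from 0) in each of 30 animals (points) by group, with mean and SD beside them, for the 100 members, for their 3 length classes and for the 13 mitochondrial transcripts that the rule removed. At 33 h the shortest members held 15.7% with vehicle and 19.7% with the high dose, the mitochondrial transcripts 20.3% and 14.9%, and the 100 members together 31.3% and 34.0%.

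At 33 h the shortest members held a larger and most long members a smaller share of TPM in the high-dose animals than in the vehicle animals. The 16 members of short effective length held 15.7% ± 0.859 of TPM with vehicle and 19.7% ± 0.975 with the high dose, and the 2 groups did not overlap (15.0% to 17.2% and 18.5% to 20.9%). The most abundant of them, ENSCPOT00000037091.1, held 5.06% and 7.29%, with overlapping animals (4.01% to 6.58% and 4.88% to 9.82%), and the other 15 held 10.7% ± 0.365 and 12.4% ± 1.09, with high-dose animals (11.1% to 14.1%) just above every vehicle animal. In the low-dose animals of 33 h the 16 short members held 18.3% ± 2.63 (15.7% to 21.4%), which overlapped vehicle, and at 9 h they held 15.6% ± 1.25, 17.3% ± 1.56 and 19.4% ± 1.96 from vehicle to high dose. In CPM, which does not use the effective length, the median of the short members was -0.23 ± 0.24 in the high-dose animals of 33 h and -0.08 ± 0.06 in the vehicle animals on the log2 scale, with overlapping ranges. Of all counts they held 0.472% with vehicle and 0.517% with the high dose. The 48 members between held 9.80% and 9.52%. The 36 long members held 5.74% ± 0.330 and 4.75% ± 0.634, and these ranges overlapped. The long members include ENSCPOT00000025542.2, whose own share at 33 h was 0.801% with vehicle and 1.61% with the high dose. Without it the other 35 long members held 4.94% ± 0.225 in vehicle, 4.24% ± 0.599 in low-dose and 3.15% ± 0.114 in high-dose animals, and no high-dose animal (3.04% to 3.34%) reached the lowest vehicle animal (4.66%). At 9 h they held 5.03% ± 0.185, 4.15% ± 0.529 and 3.86% ± 0.487, and here too the high-dose animals (3.35% to 4.44%) lay below every vehicle animal (4.73% to 5.20%). The mitochondrial transcripts, which share the same total, held 20.3% of TPM in vehicle animals and 14.9% in high-dose animals at 33 h, and their part in the member shares was not tested.

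Changes of single members were tested with edgeR's quasi-likelihood test on rounded estimated counts over 19729 transcripts, and those with an adjusted p (Benjamini-Hochberg) of at most 0.1 are described as called. All 100 members passed the filter on low counts. The members carried a median of 19544.7 counts in a vehicle animal against 160.9 over all listed transcripts, so a change of a given size is easier to detect in them. For that reason the total count of members called in each comparison with the dosed animals is set beside the share of all tested transcripts called and beside the share among the 6376 tested transcripts with at least the 859.5 mean counts of the least counted member, a comparison chosen after the data were seen. The latter are described below as those with as many counts. The bound is only a floor, so this set is not matched to the members in depth and does not remove the difference in detection.

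With the low dose at 9 h, 47 of 100 members were called, of which 5 rose and 42 fell. Of all transcripts tested 23.1% were called (11.7% higher and 11.3% lower), and of those with as many counts 36.9% (935 higher and 1418 lower). The median log2 fold change was -0.17 over the members and 0.02 over all transcripts tested. With the high dose at 9 h, 62 members were called (11 rose and 51 fell), against 32.8% of all tested (16.9% higher, 15.9% lower) and 50.2% of those with as many counts (1376 higher and 1824 lower). The high-dose median was -0.18 over the members and 0.02 over all. In both comparisons the members changed mostly by small amounts: 1 member rose by at least 2-fold at each dose, beside 2.01% (low) and 2.79% (high) of all tested, and 5 and 11 members fell by at least 2-fold, beside 0.973% and 2.47%. Groups of dosed and vehicle animals did not overlap for 30 members (low) and 37 members (high), beside 12.2% and 16.4% of all transcripts tested. With only vehicle animals 31 and 32 as controls 1 member was called at each dose, beside 0.228% and 0.634% of all tested, and with only animals 58 to 60 the counts were 30 and 47, beside 14.7% and 24.3%. These fits have 2 or 3 controls and call fewer transcripts of any kind. The median log2 fold change of the members was -0.19 and -0.20 with the first and -0.18 and -0.17 with the second set of controls. Without low-dose animal 35 the low-dose count was 27, beside 14% of all tested.

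The changes at 9 h were strongest among the long members. Of the 36 members of at least 1000 bases, 24 were called in low-dose animals (2 rose, 22 fell) and 30 in high-dose animals (4 rose, 26 fell), with a median log2 fold change of -0.48 and -0.67. Of all tested transcripts of at least 1000 bases, 23.6% and 33.5% were called (median 0.02 at both doses), and of those of this length above the floor of 859.5 counts 36.6% and 50.1% (median -0.04 and -0.03). The long members had at least 20781 mean counts in the vehicle animals, far above that floor, so a difference in depth remains. Of the 48 members between, 14 and 21 were called. In that class 19.2% and 28% of all tested transcripts were called, but 39.9% and 50.7% of those above the floor. The latter shares are higher than the members' own 29.2% and 43.8%. Of the 16 shortest members 9 and 11 were called, beside 50% and 66.7% of the 18 transcripts of that class above the floor, most of them the members themselves.

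ENSCPOT00000006650.3, of 1869 bases, fell furthest in the high-dose animals of 9 h. It had 845, 1549, 796, 1024 and 1154 CPM in the vehicle animals and 116, 351, 87.7, 555 and 194 CPM in the high-dose animals, so the groups did not overlap. Its log2 fold change was -2.04 ± 0.47 (SE, n = 5 per group, edgeR adjusted p = 0.0151), and with the low dose -1.60 ± 0.47 (adjusted p = 0.0472), although 1 low-dose animal kept 825 CPM. ENSCPOT00000042426.1, of 1736 bases, is paired with the rat Entrez Gene identifier 313089. It had 933 to 1504 CPM in the 9 h vehicle animals and 130 to 607 CPM in the high-dose animals, a log2 fold change of -2.03 ± 0.46 (adjusted p = 0.0147). With the low dose it ranged from 244 to 828 CPM, below every vehicle animal, with a log2 fold change of -1.36 ± 0.34 (adjusted p = 0.0293).

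The size of the fall of ENSCPOT00000025542.2 at 9 h depended on vehicle animal 59. The low dose gave a log2 fold change of -1.95 ± 0.64 (edgeR adjusted p = 0.0658) and the high dose one of -1.95 ± 0.63 (adjusted p = 0.0461). Without animal 59 the values were -0.92 (adjusted p = 0.144) and -0.93 (adjusted p = 0.0844). The low-dose call was also lost without vehicle animal 58 (-1.96, adjusted p = 0.11) and without any one of low-dose animals 34 to 37 (adjusted p from 0.103 to 0.124), with little change in the fold. By limma-trend on log2(TPM + 0.5) neither dose was called (-1.26, adjusted p = 0.154, and -1.25, adjusted p = 0.123). With animals 31 and 32 alone as controls they were -0.32 (adjusted p = 0.574) and -0.33 (adjusted p = 0.263). The dosed animals themselves lay close together, from 8910 to 18879 CPM at the low and from 12149 to 16395 CPM at the high dose, and the vehicle animals of 33 h ranged from 10558 to 20078 CPM.

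**Figure D2:**
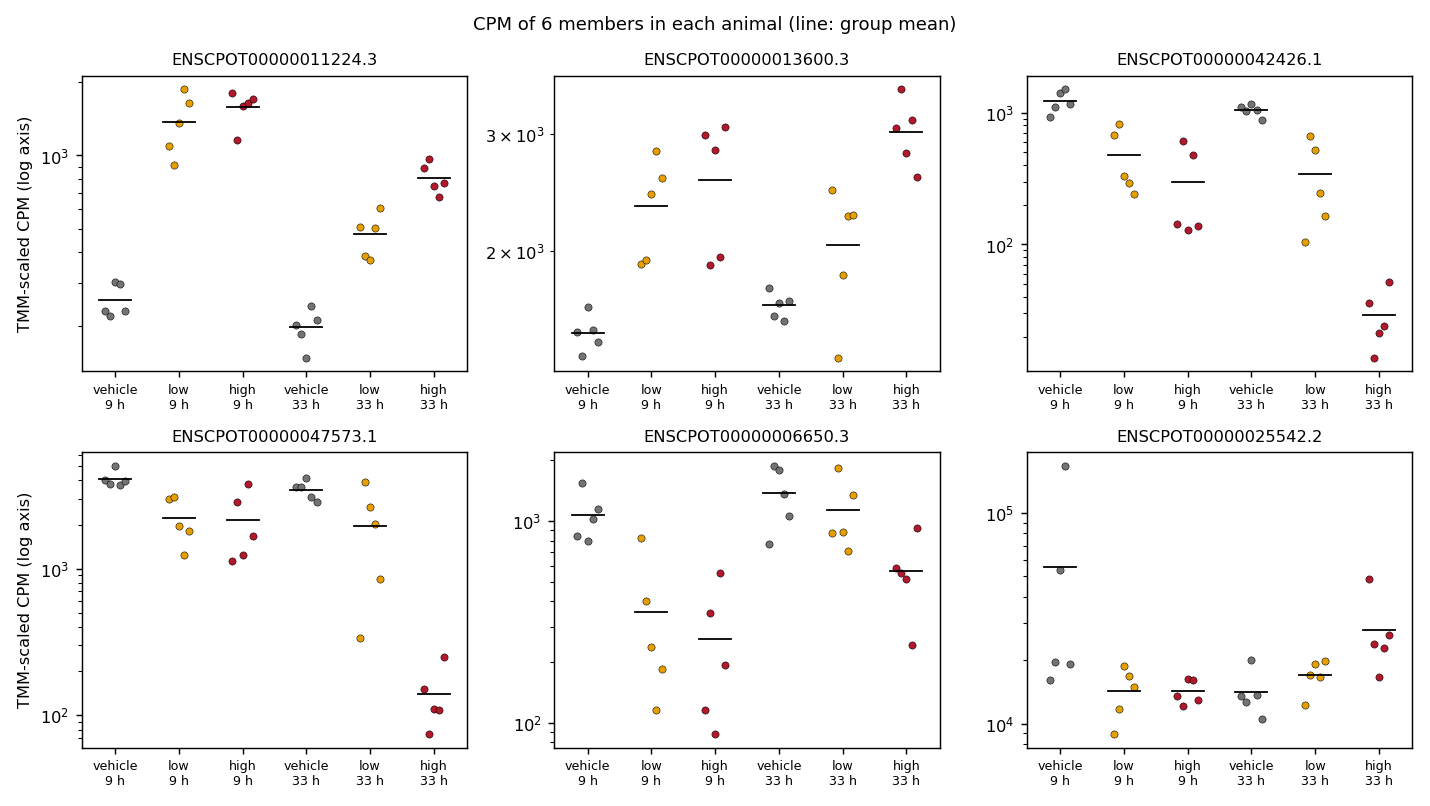
TMM-scaled CPM on log axes of 6 members in each of 30 animals (points) by group, with a line at the group mean. ENSCPOT00000011224.3 is higher in every dosed animal than in every vehicle animal of its time, ENSCPOT00000042426.1 and ENSCPOT00000047573.1 fall furthest with the high dose at 33 h, and the high 9 h vehicle mean of ENSCPOT00000025542.2 is raised by animal 59.

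Among the members that rose at 9 h, ENSCPOT00000011224.3 stood apart. This transcript of 189 bases ranked 14 and is paired with the rat Entrez Gene identifier 24567. It had 229, 220, 302, 296 and 229 CPM in the 9 h vehicle animals, 1096, 917, 1359, 1869 and 1644 CPM in the low-dose animals and 1810, 1155, 1603, 1645 and 1701 CPM in the high-dose animals. Every dosed animal was at least 3 times above the highest vehicle animal. Its log2 fold change reached 2.43 ± 0.20 at the low dose (edgeR adjusted p = 0.00012) and 2.63 ± 0.15 at the high dose (adjusted p = 9.5e-06). ENSCPOT00000013600.3, of 2068 bases, went from 1389 to 1650 CPM with vehicle to 1914 to 2831 CPM in low-dose and 1907 to 3073 CPM in high-dose animals, with log2 fold changes of 0.63 ± 0.11 (adjusted p = 0.0124) and 0.76 ± 0.14 (adjusted p = 0.00839). The other called rises had log2 fold changes of at most 0.60 with the high dose and at most 0.46 with the low dose.

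With the low dose at 33 h, 9 members were called, of which 7 rose and 2 fell, beside 0.897% of all transcripts tested (0.476% higher, 0.421% lower) and 1.76% of those with as many counts (65 higher and 47 lower). The median log2 fold change was 0.03 over the members and 0.00 over all. ENSCPOT00000011224.3 rose again, from 147 to 241 CPM in the vehicle animals to 371 to 606 CPM, a log2 fold change of 1.26 ± 0.16 (edgeR adjusted p = 0.021). ENSCPOT00000041535.1, of 2640 bases, went from 2915 to 3208 CPM to 3848 to 5127 CPM, a log2 fold change of 0.52 ± 0.09 (adjusted p = 0.0729). The 2 falls were of ENSCPOT00000002552.3, from 994 to 1305 CPM to 448 to 856 CPM (log2 fold change -0.85 ± 0.16, adjusted p = 0.0788), and of ENSCPOT00000023648.2, from 2085 to 2386 CPM to 1209 to 1769 CPM (-0.55 ± 0.10, adjusted p = 0.0652). In each of these 4 members the dosed and vehicle animals did not overlap, which held for 22 of the members and for 3.66% of all transcripts tested.

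The low-dose animals of 33 h differed widely among themselves. ENSCPOT00000047573.1, the longest member with 4924 bases, had 336, 3883, 2638, 2008 and 856 CPM in animals 48 to 52, against 2831 to 4150 CPM with vehicle, and its log2 fold change of -0.84 ± 0.51 was not called (edgeR adjusted p = 0.455). ENSCPOT00000042426.1 had 105, 668, 517, 247 and 164 CPM in the same animals, all below the vehicle range of 883 to 1167 CPM, and was not called either (-1.63 ± 0.44, adjusted p = 0.145). Leaving out one animal at a time moved the count of members called from 1 without animal 52 or any one vehicle animal (0.0558% to 0.0862% of all transcripts tested) to 39 without animal 49 (10.5%). The count also moved with the method, to 33 by DESeq2 (7.51% of all), to 26 with all 30 animals in one fit (5.57%) and to 1 at an adjusted p of at most 0.05 (0.071%).

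**Figure D3:**
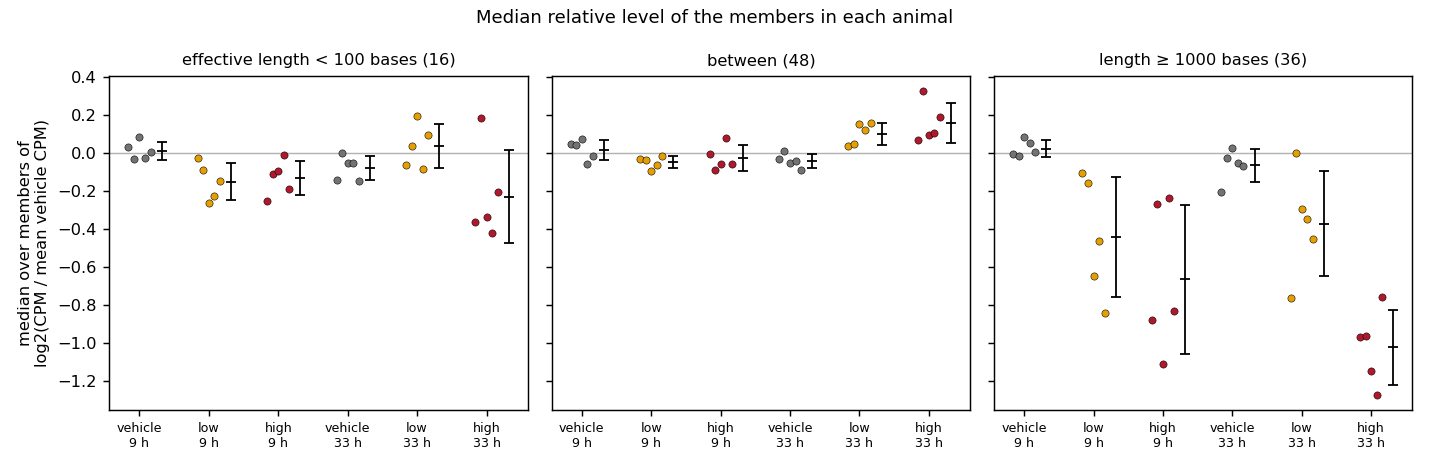
Median over the members of a length class of log2(CPM / mean CPM of the 10 vehicle animals), in each of 30 animals (points) by group, with mean and SD. For the long members the high-dose animals of 33 h lie from -1.27 to -0.76 and the vehicle animals of that time from -0.20 to 0.03, and the low-dose animals of 33 h spread from -0.76 to 0.00.

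The median level of the long members shows the same spread by animal. Relative to the mean of the 10 vehicle animals it lay between -0.20 and 0.08 on the log2 scale in every vehicle animal. With the low dose it was -0.11, -0.16, -0.65, -0.46 and -0.85 in animals 33 to 37 at 9 h and -0.76, 0.00, -0.30, -0.35 and -0.45 in animals 48 to 52 at 33 h. In the high-dose animals of 9 h it was -0.88, -0.27, -1.11, -0.24 and -0.83 (animals 38 to 42), so that 3 of the 5 animals lay within the low-dose range of that time. At 33 h all 5 high-dose animals were between -1.27 and -0.76. The median of the 48 members between was above 0 in all 10 dosed animals of 33 h (0.03 to 0.33) and below it in 4 of the 5 vehicle animals (-0.09 to 0.01).

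With the high dose at 33 h, 83 of 100 members were called, 39 higher and 44 lower, beside 49.2% of all transcripts tested (25.1% higher, 24.1% lower) and 68.5% of those with as many counts (1864 higher and 2506 lower). The median log2 fold change was -0.07 over the members and 0.00 over all. Among the members called, 25 fell by at least 2-fold and 1 rose by at least 2-fold, whereas over all transcripts tested 5.52% fell and 5.46% rose by that much. The split of 39 and 44 depends on the ranking: of the first 100 transcripts by mean CPM 83 were called too, with 26% of the calls higher in place of 47%. For 73 members the dosed and vehicle animals did not overlap, beside 33.2% of all transcripts tested.

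The long members called were mostly lower, those between mostly higher, and the shortest were split. Of the 36 long members 35 were called, 26 lower and 9 higher, with a median log2 fold change of -0.95, and 18 fell by at least 2-fold. Over all tested transcripts of at least 1000 bases 50.1% were called, about as many higher (4311) as lower (4294), and the median was -0.01. Of those of this length with as many counts 68% were called, 28.2% higher and 39.8% lower (median -0.05). Of the 48 members between, 37 were called, 25 higher and 12 lower (median 0.16), beside 43.2% of all tested transcripts of that class and 76.1% of those with as many counts. Of the 16 shortest 11 were called, 5 higher and 6 lower (median -0.07), beside 40.2% and 72.2%. For these 2 classes the members' share called (77.1% and 68.8%) was close to that of the transcripts above the floor of counts, which are not matched to them in depth. The classes were formed with these values known, so their contrast is a description.

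**Figure D4:**
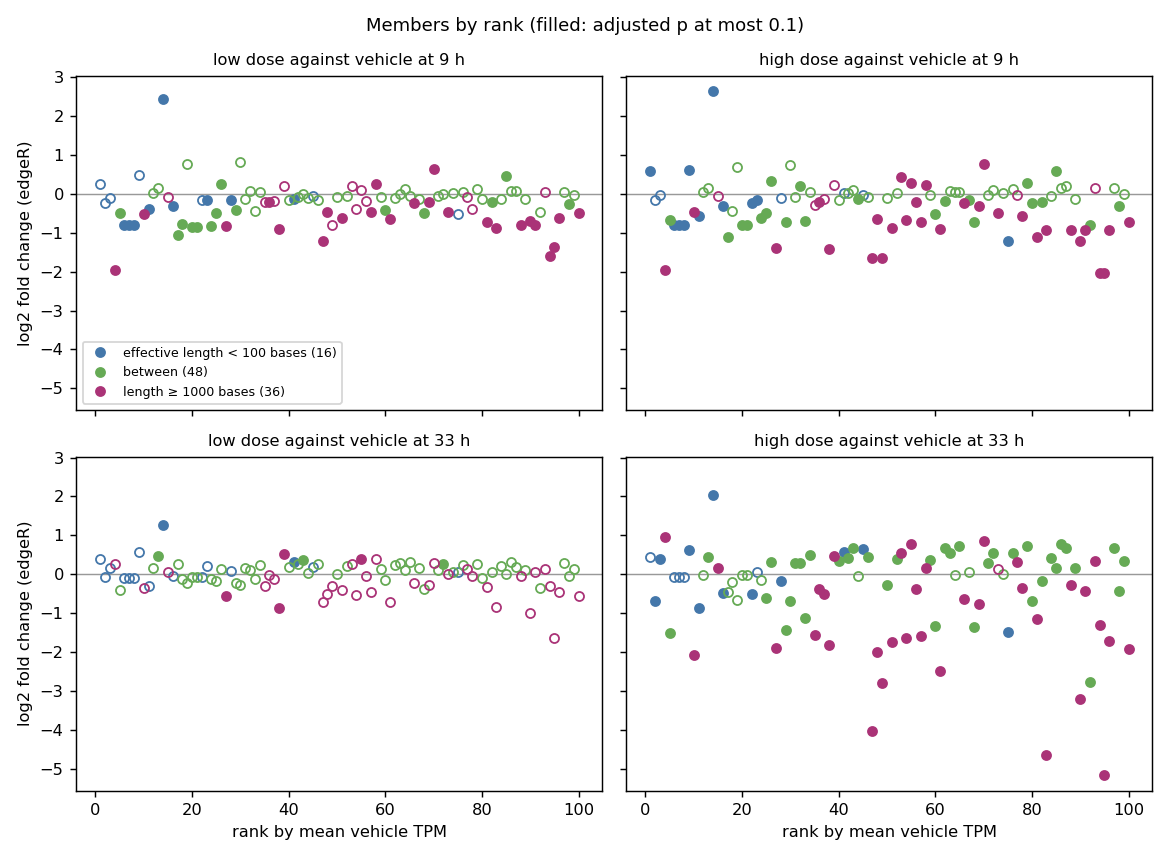
Log2 fold change (edgeR) of the 100 members against their rank by mean vehicle TPM, for each dose and time, with filled symbols for members called at an adjusted p of at most 0.1 and colors for the length classes. The falls beyond 2-fold with the high dose at 33 h are mostly of long members (18 of 25), and ENSCPOT00000011224.3 at rank 14 is the single rise beyond 2-fold in every panel.

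ENSCPOT00000042426.1 fell furthest. It had 1108, 1022, 1167, 1043 and 883 CPM in the 33 h vehicle animals and 35.7, 13.8, 21.5, 24.1 and 51.9 CPM in the high-dose animals. Its log2 fold change was -5.16 ± 0.33 (edgeR adjusted p = 1.5e-06), and its rank by mean TPM in that group was 4778. ENSCPOT00000047573.1 had 3582, 3616, 4150, 3104 and 2831 CPM with vehicle and 153, 74.3, 111, 109 and 249 CPM with the high dose, a log2 fold change of -4.64 ± 0.31 (adjusted p = 1.8e-06). Both groups of animals are separated more than 10-fold for these members. ENSCPOT00000011224.3 had 201, 186, 147, 241 and 211 CPM with vehicle and 886, 967, 750, 677 and 768 CPM with the high dose, a log2 fold change of 2.03 ± 0.14 (adjusted p = 1.9e-06). The next rise was of ENSCPOT00000025542.2, with 10558 to 20078 CPM in vehicle and 16715 to 48774 CPM in high-dose animals, which overlapped (0.97 ± 0.27, adjusted p = 0.0131). ENSCPOT00000013600.3 rose from 1568 to 1759 CPM to 2587 to 3499 CPM (0.86 ± 0.08, adjusted p = 9.5e-06).

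The comparison of the high with the low dose at 33 h uses no vehicle animal, so the choice of members did not use its values. In it 72 members were called, 25 higher and 47 lower with the high dose, beside 28.7% of all transcripts tested (13.7% higher, 15% lower) and 45.4% of those with as many counts (1118 higher and 1774 lower). Among the first 100 transcripts by mean CPM, 14% of the calls were higher in place of 35%. By at least 2-fold, 22 members were lower and 0 higher, beside 3% and 2.03% of all tested. The median log2 fold change was -0.13 over the members and -0.66 over the 36 long members, of which 25 were called lower and 5 higher. Of all tested transcripts of that length 29.2% were called in either direction, and of those with as many counts 44.5% (16.9% higher, 27.6% lower). ENSCPOT00000047573.1 (-3.81 ± 0.63, edgeR adjusted p = 0.00745) and ENSCPOT00000042426.1 (-3.54 ± 0.57, adjusted p = 0.00745) had the largest differences. For both, the highest high-dose animal (249 and 51.9 CPM) lay below the lowest low-dose animal (336 and 105 CPM). ENSCPOT00000011224.3 was higher with the high dose (677 to 967 CPM against 371 to 606 CPM), by a log2 fold change of 0.77 ± 0.15 (adjusted p = 0.00946).

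The vehicle animals of 33 and 9 h were compared to measure the change of the members without mercuric chloride. No member was called by edgeR, beside 0% of all transcripts tested. At an unadjusted p under 0.05 there were 26 members and 2311 of all transcripts tested, and DESeq2 called 7 members (2.96% of all). With only animals 58 to 60 as the 9 h group, edgeR called 14 members, beside 3.09% of all. The log2 fold change was below 0 for 81 of the 100 members, with a median of -0.08 against 0.00 over all transcripts tested. By limma on TPM the 2 medians were 0.05 and 0.10, so the direction of the member median depends on the scaling. These animals chose the members, and the 2 times also differ in how long the animals had fed after dosing.

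Dose effects were then compared between times with a contrast over 4 groups. The low-dose effect differed between 33 and 9 h for 22 members, beside 5.22% of all transcripts tested (2.83% higher, 2.39% lower) and 9.5% of those with as many counts (371 higher and 235 lower). In 20 of the 22 members the log2 fold change was higher at 33 h. The count was 7 without low-dose animal 35 (2.01% of all tested), 2 with only vehicle animals 31 and 32 at 9 h (0.152%) and 6 at an adjusted p of at most 0.05 (1.42%). By limma on TPM 4 members were called, which is below the 5.82% of all transcripts tested, and there the median of all transcripts lay lower by 0.11 than by edgeR on the log2 scale. One of the 2 lower was ENSCPOT00000011224.3, whose rise was smaller at 33 h by 1.17 ± 0.26 on the log2 scale (edgeR adjusted p = 0.0331). The high-dose effect differed for 57 members, 33 higher and 24 lower at 33 h, beside 20.5% of all tested (10.2% higher, 10.3% lower) and 31.5% of those with as many counts (883 higher and 1127 lower). With the ranking by mean CPM 24% of these calls were higher in place of 58%. The deepest falls went further with time, for ENSCPOT00000047573.1 by -3.70 ± 0.46 (adjusted p = 4.6e-05) and for ENSCPOT00000042426.1 by -3.13 ± 0.58 (adjusted p = 0.00133). For ENSCPOT00000047573.1, 1 high-dose animal of 9 h still had 3792 CPM, within the range of the vehicle animals (3728 to 5027 CPM). The positive difference of ENSCPOT00000025542.2 was 2.92 ± 0.71 (adjusted p = 0.00932) and 1.91 (adjusted p = 0.00852) without vehicle animal 59. ENSCPOT00000011224.3 rose at both times, by less at 33 h (difference -0.60 ± 0.20, adjusted p = 0.0491).

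**Figure D5:**
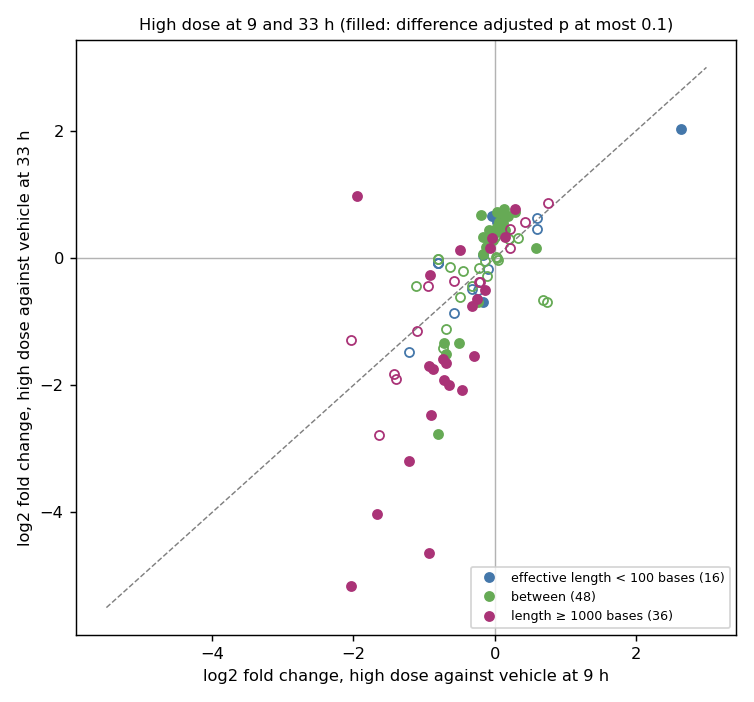
Log2 fold change of the 100 members with the high dose at 33 h (y axis) against that at 9 h (x axis), each against the vehicle animals of its own time, with filled symbols where the difference was called (57 members) and colors for the length classes. Members below the dashed line of equal change had a lower log2 fold change at 33 h, among them long members down to -5.16.

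The 2 times have separate dosed and vehicle animals. With the high dose, 62 members were called at 9 h and 83 at 33 h, and 50 were called at both, which is 80.6% of the first and 60.2% of the second list. These shares are close to those of all 100 members called at 33 h (83%) and at 9 h (62%), so nothing is read from the overlap. Of all transcripts tested, 4534 were called at both times, which is 70.2% of their 9 h list and 46.7% of their 33 h list. Of the 50 members called at both times, 48 had the same direction (10 higher and 38 lower) and 2 were lower at 9 h and higher at 33 h. With the low dose, 4 members were called at both times out of 47 and 9, 1 higher, 2 lower and 1 lower at 9 h and higher at 33 h. This is 8.51% of the 9 h list, beside 9% of all members called at 33 h. Over all transcripts tested 97 were called at both times, 2.13% of the 9 h list.

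The first 100 transcripts were also ranked within each group. Of the 100 members, 98 were also among the first 100 non-mitochondrial transcripts by the mean of either vehicle group alone, a number that the rule sets, since these animals chose the list, and that is no reference for the dosed groups. It was 84 and 80 with the low and high dose at 9 h, and 83 and 71 at 33 h. The lowest rank of any member was 114 in each vehicle group, 404 and 533 at 9 h, and 395 and 4778 at 33 h. The 3 most abundant of the 29 transcripts that entered with the high dose at 33 h were ENSCPOT00000008570.3, with a mean of 6324 TPM (4667 to 7118) against 657 TPM with vehicle, ENSCPOT00000019570.2, with 3043 TPM against 172 TPM, and ENSCPOT00000044307.1, with 2784 TPM against 125 TPM. These were picked for their level in that group, so its distance from vehicle is a description. Of the animals that did not enter the choice, low-dose animal 49 of 33 h had 560 TPM of ENSCPOT00000008570.3, within the vehicle range of that time (539 to 790 TPM), and the other 4 low-dose animals had 1052 to 3174 TPM, above it. ENSCPOT00000044307.1 was higher at 9 h, where it ranked 8 in the high-dose group with 6959 TPM and a high-dose log2 fold change of 4.92 ± 0.27 (edgeR adjusted p = 9.1e-06).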

How the data were processed

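The authors pseudo-aligned 75-bp paired reads of stranded poly-A libraries with Kallisto (0.42.4 in the submitters' processing notes) to Ensembl's transcriptome of the guinea pig, and deposited an estimated count and a TPM value per transcript and animal. No normalization was applied to the deposited estimated counts, and Kallisto divides reads among similar transcripts, so values of near-identical transcripts are uncertain. The deposited TPM values are scaled for effective length. Depth is the total of estimated counts per animal, and no 2 animals of the same group held identical counts (60 within-group pairs were compared). The members, the length classes and the lists were chosen with earlier results of these data known.

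Groups were taken from the sample labels, and each animal is named by the last number of its label. Members were ranked by mean TPM over the 10 vehicle animals. Estimated counts were rounded and tested in R 4.3.3 with edgeR 4.0.16 (filterByExpr over 30 animals, TMM, estimateDisp, glmQLFit, glmQLFTest), with the compared groups in the fit and Benjamini-Hochberg adjustment over 19729 transcripts. The study used Sleuth, which was not run here, and its threshold of 0.1 was kept. CPM values are TMM-scaled. The SE of an edgeR log2 fold change was derived from its size and the F statistic of the test, so it is no direct spread over animals. Alternatives were DESeq2 1.42.0, limma 3.58.1 on log2(TPM + 0.5), other normalizations, filters, thresholds and rankings, either subset of 9 h vehicle animals, members with identical values counted once (added after seeing the data), and leaving out each animal. The test was also run on simulated counts, whose outcome is not reported here. The rule for named transcripts took the 10 most abundant members, the members next to the limit, the most variable, the largest rises and falls of each comparison (5 and 5 against vehicle, 3 and 3 otherwise) and the 3 most abundant transcripts that entered. Since identifiers carry no gene names, at most 2 rises and 2 falls per comparison are given in full, with 3 where 1 animal decides a value. ENSCPOT00000047573.1 with the low dose at 33 h was chosen for description once its values were known. Gene lists and cell type markers were not run, because the gene table used here (mCavPor4.1) holds no Ensembl identifiers. The in vitro samples of the study were not analysed here.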

Additional observations from a re-analysis of the deposited data

Results flagged for a closer look

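For the members named by rule (in CPM) and the members' shares of TPM and counts, 234 groups of 5 values were searched for an animal standing far from its group (Dixon's criterion at 95%). In them 12 were found where chance alone gives about 11.7. The groups are not independent, since members with identical values were counted separately. For ENSCPOT00000025542.2, vehicle animal 59 of 9 h had 167200 CPM and the next animal 53610. The 3 members with identical values, ENSCPOT00000036147.1, ENSCPOT00000045819.1 and ENSCPOT00000047659.1, each had 340.7 CPM in high-dose animal 54 of 33 h, where the next animal had 183.6. In the same group, animal 55 had 349.9 CPM of ENSCPOT00000037664.1 (next 311.1) and animal 56 had 2523 CPM of ENSCPOT00000046982.1 (next 2711). In the high-dose group of 9 h, animal 41 had 3368 CPM of ENSCPOT00000046982.1 (next 2815) and animal 39 had 261.9 CPM of ENSCPOT00000000433.3 (next 311.6). Vehicle animal 43 had 692.5 CPM of ENSCPOT00000007655.3 (next 966.6), and vehicle animal 58 had 5027 CPM of ENSCPOT00000047573.1 (next 4014). Low-dose animal 37 had 337.8 CPM of ENSCPOT00000023765.2 (next 299.7), and low-dose animal 50 had 1461 CPM of ENSCPOT00000014860.3 (next 924.8).

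The effect of a dose differed between 33 and 9 h by the contrast over 4 groups in edgeR for 22 members with the low dose, beside 5.22% of all transcripts tested (7 without low-dose animal 35, beside 2.01%), and for 57 with the high dose, beside 20.5%. With the low dose the largest differences in log2 fold change were 2.21 for ENSCPOT00000025542.2, 1.32 for ENSCPOT00000014860.3 and 0.85 for ENSCPOT00000000926.3 upward, and -1.17 for ENSCPOT00000011224.3 and -0.44 for ENSCPOT00000042668.1 downward. With the high dose they were 2.92 for ENSCPOT00000025542.2, 0.87 for ENSCPOT00000008130.3 and 0.70 for ENSCPOT00000001987.3 upward, and -3.70 for ENSCPOT00000047573.1, -3.13 for ENSCPOT00000042426.1 and -2.37 for ENSCPOT00000001765.3 downward. The low-dose difference of ENSCPOT00000025542.2 (edgeR adjusted p = 0.0977) was no longer called in 16 of the 20 fits without 1 animal (adjusted p from 0.1 to 0.167), and was 1.18 without vehicle animal 59 and 0.59 (adjusted p = 0.461) with only vehicle animals 31 and 32 at 9 h.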

How the results depend on the processing

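No paired analysis was possible because animal numbers are not shared between groups. The 54 log2 fold changes named as the largest called rises and falls gave 1036 alternative values. Of these, 873 kept direction and call, 163 kept direction without the call, 54 of the latter for the low dose at 33 h, and 0 were reversed. They were picked for their size and call, and the alternatives reuse the same animals, so the lack of reversals is no measure of stability. The number of members called (of 100) moved as follows, by over 1.5 times under some alternatives; the cause was not tested. With vehicle animals 31 and 32 as the only 9 h controls, and so with fewer samples, 1 was called at each dose at 9 h (0.228% and 0.634% of all tested) and 2 for the low-dose effect between times (0.152%). With animals 58 to 60 only, 30 were called for the low dose at 9 h (14.7% of all tested) and 14 between vehicle times (3.09%). An adjusted p of at most 0.05 left 31 for the low dose at 9 h (13.9% of all tested), 1 for the low dose at 33 h (0.071%) and 6 for the low-dose effect (1.42%). DESeq2 called 33 for the low dose at 33 h (7.51% of all) and 7 between vehicle times (2.96%), and all 30 animals in one fit called 26 for the low dose at 33 h (5.57%). For the low-dose effect, limma on TPM called 4 (5.82% of all tested), no count filter 14 (3.27%) and ranking by CPM 7 (5.22%). Leaving out each animal gave 27 (without 35, 14% of all tested) to 55 (without 33, 28.7%) for the low dose and 46 (without 38, 22.7%) to 64 (without 39, 36.2%) for the high dose at 9 h, 1 to 39 for the low dose and 81 to 88 for the high dose at 33 h, 58 to 73 for high against low, 0 to 1 between vehicle times, and 7 (without 35) to 25 (without 33) and 53 to 63 for the low- and high-dose effects. Rankings that used only the vehicle animals of the other time gave 46, 60, 9 and 83 for the 4 dose comparisons, beside 23.1, 32.8, 0.897 and 49.2% of all tested. Ranking by CPM shared 49 members with the TPM ranking, and its share of higher calls with the high dose at 33 h was 26% in place of 47%, with 14% in place of 35% for high against low and 24% in place of 58% for the high-dose effect.

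The share of the members, in the order vehicle, low and high at 9 h and then at 33 h, was 41.8, 38.7, 40.4, 39.2, 40.7 and 39.9% of non-mitochondrial TPM and 16.1, 11.4, 11.1, 12.6, 12.1 and 11.2% of counts. It was 28.3, 26.8, 28.6, 26.4, 28.6 and 29.2% for the first 50 transcripts, and 38.8, 37.3, 38.9, 37.3, 39.7 and 40.9% for the first 200. Ranking over all 30 animals, which uses the dosed animals too, gave 32.4, 32.2, 34.3, 30.8, 33.9 and 36.3% in that order, and at 33 h high-dose and vehicle animals did not overlap. Values of very short transcripts rest on few effective positions, and 5 animals per group limit the detection of small changes.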
